A study of Mus musculus with 5 samples.

Results

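A set of 10 genes of the T cell surface were examined in ChIPseq peak lists of acetylated histones: Cd3e, Cd3d, Cd3g, Cd247, Cd8a, Cd8b1, Cd2, Cd5, Cd6 and Thy1. These 10 of 21911 annotated protein-coding genes were named by function, by a rule that used no measured value. Earlier results of these data were, however, known when the genes were chosen. A window was drawn around each gene from 30 kb before to 30 kb after the gene body on GRCm38, and every peak that shared at least 1 bp with a window was taken. Cd3e, Cd3d and Cd3g lie side by side on chromosome 9 and were treated as 1 locus. Cd8a and Cd8b1 on chromosome 6 formed another, and Cd5 and Cd6 on chromosome 19 were joined because their windows overlapped, which left 6 loci with 675 kb of window in all.

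The study asked whether loss of the pyruvate dehydrogenase complex (PDC), which makes acetyl-CoA from pyruvate, altered histone acetylation in memory-type CD8+ T cells (TM). There were 5 peak lists, 2 from WT cells and 3 from TPdh-/- cells. TPdh-/- mice carry floxed Pdha1 (B6.129P2-Pdha1tm1ptl/J) and a CD4-Cre transgene, which recombines in the T cell lineage from the stage at which thymocytes carry both CD4 and CD8, so CD8+ cells are targeted too. The mice were young adults of both sexes, and both groups received the same differentiation: per the methods, OT-I cells, whose T cell receptor recognises an ovalbumin peptide, were activated with that peptide and then cultured with IL-15. The description of the ChIPseq itself speaks of splenic T cells and of more libraries per condition than were analysed here. The labels give CD8 cells of memory type and name acetylated lysine 18, whereas the antibody (ab1191) is described in the methods as recognising acetyl-lysine of histones. No label says whether replicates came from separate animals or cultures, so p-values measure only the spread between these libraries, which may be technical.

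The T cell receptor has no signalling tail of its own and depends on CD3: CD3ε pairs with CD3δ and with CD3γ, and the CD3ζ chains encoded by Cd247 complete the complex. CD8 is a coreceptor of α and β chains that binds class I MHC and brings the kinase Lck to the receptor. CD2, CD5, CD6 and Thy-1 are surface proteins that tune adhesion and the strength of signalling, and histone acetylation at promoters and enhancers is a mark of active chromatin.

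The lists were of unequal length. WT replicates 1 and 2 held 15962 and 8859 peaks, and TPdh-/- replicates 1, 2 and 3 held 4920, 5419 and 9418. Each list has a fold enrichment per peak over the background estimated by MACS2 and a −log10 q, by which peaks were ranked here. A percentile of 100 is the strongest peak of its own list, and a percentile was set to 0 where there was no peak. WT replicate 1 stood apart by its number of peaks, so leading counts are also given without it. The lists contain no numbers of reads, and how deeply each peak was covered is therefore unknown. A lower signal from fewer cells carrying the mark and from less of the mark per cell cannot be told apart.

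Promoter sequences of the Cd3 and Cd8 genes are shown, as far as the table used gives them, because the promoter results of these 2 loci are described one by one. Each runs 5′ to 3′ on the strand of the gene from 250 bases before to 50 bases after the RefSeq start site of GRCm38.p6. Capitals mark matches on either strand to short motifs of factors active in T cells, so a match on the opposite strand appears as its reverse complement. The letters searched were GGAAGT, a core bound by the ETS family, and TGTGGT, which RUNX factors bind. They also included CAGCTG, an E-box for basic helix-loop-helix proteins, and AGATAA for zinc finger proteins of the GATA family. The other two were CTTTGA, recognised by TCF/LEF proteins, and TATAAA, the letters of a TATA box. Cd3e is at chr9:45009562-45009861 (minus strand), Cd3d at chr9:44981536-44981835 (plus strand), Cd3g at chr9:44980382-44980681 (minus strand) and Cd8a at chr6:71373177-71373476 (plus strand).
Cd3e: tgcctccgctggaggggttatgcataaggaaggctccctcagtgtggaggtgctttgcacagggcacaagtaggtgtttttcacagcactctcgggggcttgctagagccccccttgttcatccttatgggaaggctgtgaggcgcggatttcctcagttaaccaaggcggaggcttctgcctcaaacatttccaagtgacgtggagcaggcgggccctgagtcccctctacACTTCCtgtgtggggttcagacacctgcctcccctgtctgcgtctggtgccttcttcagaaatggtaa
Cd3d: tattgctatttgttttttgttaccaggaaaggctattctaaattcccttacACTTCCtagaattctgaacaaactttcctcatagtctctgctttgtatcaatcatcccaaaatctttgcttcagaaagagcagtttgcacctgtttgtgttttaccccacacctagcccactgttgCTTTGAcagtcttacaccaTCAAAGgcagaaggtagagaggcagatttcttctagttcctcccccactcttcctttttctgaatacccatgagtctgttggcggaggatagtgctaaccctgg
Cd3g: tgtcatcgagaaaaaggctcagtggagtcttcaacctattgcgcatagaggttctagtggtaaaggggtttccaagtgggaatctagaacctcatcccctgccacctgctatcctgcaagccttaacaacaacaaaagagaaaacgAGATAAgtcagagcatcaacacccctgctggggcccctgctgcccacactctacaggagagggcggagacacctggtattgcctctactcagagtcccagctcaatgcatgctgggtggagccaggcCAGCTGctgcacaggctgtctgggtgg
Cd8a: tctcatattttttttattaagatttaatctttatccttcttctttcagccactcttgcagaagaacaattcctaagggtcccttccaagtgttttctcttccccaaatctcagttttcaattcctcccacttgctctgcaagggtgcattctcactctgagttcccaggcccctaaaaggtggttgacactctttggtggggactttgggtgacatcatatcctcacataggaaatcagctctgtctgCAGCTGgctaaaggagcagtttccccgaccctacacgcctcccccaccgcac

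The RefSeq table gave a promoter for 6 of the 10 genes, these 4 with Cd247 (chr1:165788431-165788730) and Cd5 (chr19:10738925-10739224). The entries not given were those of Cd8b1, Cd2, Cd6 and Thy1. All 6 promoters were poor in CG dinucleotides. The observed to expected CG ratio was 0.333 in Cd3e, 0.0774 in Cd3d, 0.183 in Cd3g, 0.210 in Cd247, 0.198 in Cd8a and 0.126 in Cd5, against a median of 0.567 over 21238 promoter windows of protein-coding genes. The Cd3e window, the richest of the 6, still had a lower ratio than the median, and 34.6% of all windows were lower than it. GC content was between 42.3% in Cd3d and 57.3% in Cd5, beside a median of 56.3%.

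An ETS match, the sequence bound by factors such as ETS1, lay 18 bases before the Cd3e start site, and the Cd247 window held 2. Single ETS matches were in Cd3d and Cd5, so 4 of the 6 windows had one, while 24.8% of all windows did. TCF/LEF matches were in Cd3d, where there were 2, and in Cd247, against 14.4% of all windows. An E-box match fell in Cd3g and Cd8a (15.6% of all windows), and a GATA match in Cd3g (9.65%). No RUNX or TATA box letters were found in the 6 windows, beside 15.0% and 12.6% of all windows. A match is a description of the letters and not evidence of binding. Of all windows with a CG ratio under 0.5, between 2.40% and 8.53% lay under a peak in the 5 libraries, whereas 16.4% to 51.9% of the other windows did. The part of CG content in the results of the 10 genes was not tested.

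A promoter peak, here a peak within 3000 bp of any annotated start site, was found at all 10 genes in WT replicate 1, where 42.1% of protein-coding genes had one. It was found at 7 genes in WT replicate 2 (24.8% of all genes), at 3 in TPdh-/- replicate 1 (15.3%), at 4 in TPdh-/- replicate 2 (16.5%) and at 7 in TPdh-/- replicate 3 (27.9%). The members' shares were thus above the background in each list, and WT replicate 2 and TPdh-/- replicate 3 reached the same number. Cd8b1, the β chain of CD8, was the 1 gene of the 10 with a promoter peak in all 5 libraries, a property of 10.9% of protein-coding genes. Cd3e, Cd3d, Cd247, Cd5 and Cd6 had one in 4 libraries, Cd3g in 3, and Cd8a, Cd2 and Thy1 in WT replicate 1 alone.

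**Figure D1:**
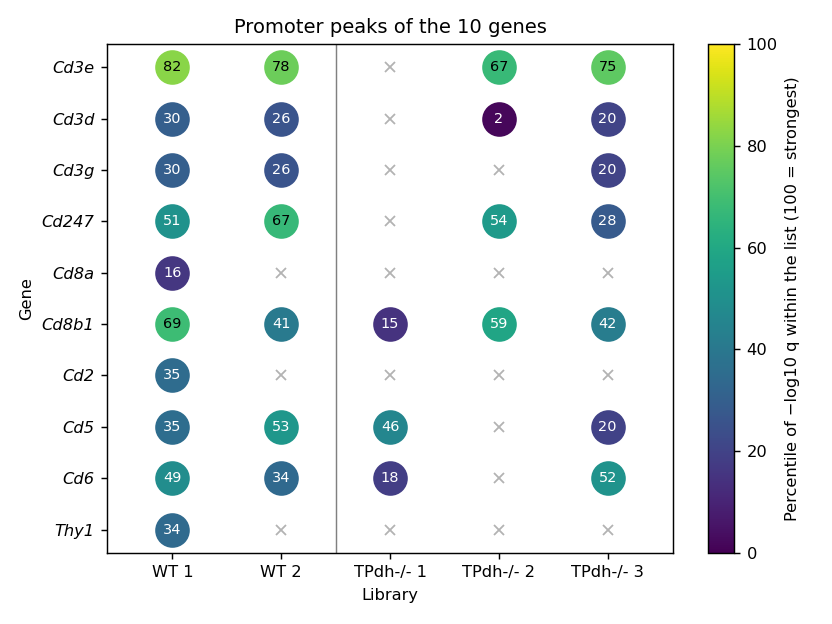
Promoter peaks of the 10 genes (rows) in the 5 libraries (columns); filled circles give the percentile of the strongest promoter peak by −log10 q within its own list, and crosses mark no peak. Cd8b1 has a circle in every library, and Cd8a, Cd2 and Thy1 have one in WT replicate 1 alone.

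CD3ε is the chain shared by both CD3 pairs, and Cd3e had the strongest promoter peak of the 3 Cd3 genes in every library that held one. Its peak stood at the 82.2 and 77.6 percentiles of the lists of WT replicates 1 and 2. It was at the 67.2 percentile in TPdh-/- replicate 2 and the 75.3 percentile in TPdh-/- replicate 3, and no peak was listed there in TPdh-/- replicate 1. Where the peak was present, both TPdh-/- percentiles were below both WT percentiles, in lists of unequal length. By rank, with 1 the strongest, the groups overlapped, at 2845 and 1987 in WT and 1778 and 2327 in TPdh-/-. The fold enrichment did not follow the order of the percentiles either. It was 2.50 and 2.68 in WT and 2.69 and 2.62 in those 2 TPdh-/- libraries, so the groups overlapped. The region, chr9:45008701-45010319, covered the first exon and the start site, and the individual peaks were 1565, 1094, 1095 and 1144 bp wide. The printed Cd3e promoter lay under the peak in each of these 4 libraries, its ETS match included, with only the outermost bases uncovered in TPdh-/- replicate 3.

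Cd3d and Cd3g are transcribed away from each other from start sites 1355 bp apart, and encode the δ and γ chains that each pair with CD3ε. Acetylation between and downstream of these starts was weak. A single region, chr9:44980735-44983027, gave the call for both genes. Its fold was 1.57 in WT replicate 1, 1.71 in WT replicate 2 and 1.66 in TPdh-/- replicate 3, at percentiles of 29.9, 25.8 and 20.03. By fold these were among the weakest peaks of their lists, at or below the 0.880 percentile of fold in every case. The peak was 2293 bp wide in WT replicate 1, where it spanned the Cd3d promoter, and 673 and 576 bp wide in the other two, where it lay inside the Cd3d gene. No peak in any library covered the printed Cd3g window.

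TPdh-/- replicate 2 was called at Cd3d by another peak, chr9:44986145-44987106, near an alternative start within the gene. It had a fold of 1.75 and stood at the 1.59 percentile of its list, and it was the 1 region of the 28 that no WT library held. With the 5′ end of the gene record as the start site, Cd3d had a promoter peak in 3 libraries in place of 4. The windows also took in Ube4a, a ubiquitin chain assembly factor that neighbours Cd3g. A region in a Ube4a intron lay 24802 bp from the Cd3g start, and within 3000 bp of a start of Gm19121, which is not protein-coding. It had a peak in all 5 libraries, with folds of 2.47 and 2.42 in WT and of 2.88, 2.49 and 2.32 in TPdh-/-. That was the sole peak of TPdh-/- replicate 1 in the Cd3 window, where it stood at the 69.2 percentile. The Ube4a promoter had a peak in both WT libraries and in TPdh-/- replicate 3.

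Taken as 1 locus, Cd3 held 4, 4, 1, 3 and 4 peaks in the order of WT replicates 1 and 2 and TPdh-/- replicates 1, 2 and 3. Their covered length was 7237 and 5401 bp for the WT libraries, against 573, 3398 and 4490 bp for those of TPdh-/-. Every TPdh-/- library was below both WT libraries in covered length, while the number of peaks in TPdh-/- replicate 3 equalled that of WT. The same order in covered length within 30 kb was seen for 18.7% of all protein-coding genes, including genes without a WT peak that could not show it.

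**Figure D2:**
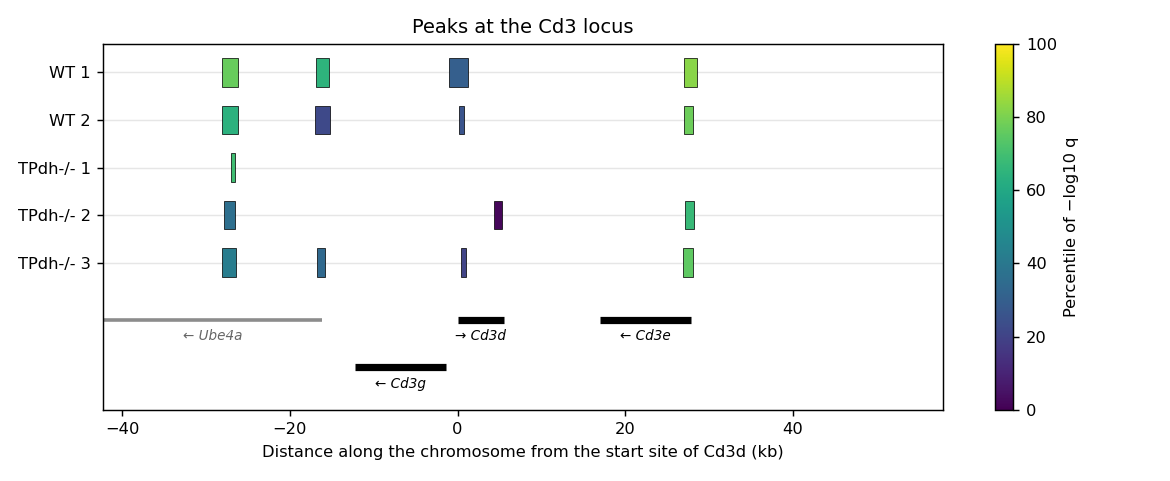
Peaks of the 5 libraries (rows) in the window of the Cd3 genes, with boxes drawn to scale along the chromosome in kb from the Cd3d start site and coloured by percentile of −log10 q; arrows before gene names give the direction of transcription. The Cd3e start carries a peak at the 67.2 to 82.2 percentile in all libraries but TPdh-/- replicate 1, which has a single peak in a Ube4a intron.

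Cd247 encodes CD3ζ, the chain that holds most of the phosphorylation motifs of the receptor. Its promoter region, chr1:165788046-165790838, had a peak in all libraries except TPdh-/- replicate 1, which listed no peak anywhere in the 148597 bp window. The folds were 1.97 and 2.31 in WT replicates 1 and 2 and 2.45 and 2.03 in TPdh-/- replicates 2 and 3. The corresponding percentiles were 50.8, 67.2, 54.2 and 28.2, and the groups overlapped on both measures. These peaks were broad, at 2562, 2012, 1933 and 2652 bp, and each stood at or above the 93.9 percentile of width in its list.

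A separate region, chr1:165780081-165781621, was centred 7830 bp upstream of the Cd247 start and had a peak in the same 4 libraries. It lay within 3000 bp of starts of Gm16565 and Gm36972, which are not protein-coding. Its folds were 2.90 and 2.82 in WT and 2.66 and 2.88 in TPdh-/-, higher than those of the promoter in each library. The percentiles were 72.4, 60.7, 32.5 and 71.3, so the low value belonged to TPdh-/- replicate 2 and not to the group. An intronic region of Cd247 had a peak in WT replicate 1 and TPdh-/- replicate 3, and the neighbouring Creg1, a secreted glycoprotein gene, in WT replicate 1 alone.

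The 2 genes of CD8 differed from each other. Cd8b1 carried a peak at its start in each library, in a region (chr6:71321786-71323744) shared with the divergent promoter of Smyd1, a methyltransferase gene of muscle. The peak spanned both start sites in 4 libraries, where the promoters cannot be told apart, and lay within Cd8b1 alone in TPdh-/- replicate 2. The peak reached a fold of 2.04 and 2.08 in the WT libraries, the first and the second replicate, against 2.23, 2.46 and 2.11 in the TPdh-/- libraries. All 3 TPdh-/- values were above both WT values, an order also seen in 11.6% of the 3099 regions with a peak in all 5 libraries. The −log10 q did not follow: its percentile was 68.7 and 41.0 in WT and 14.6, 59.0 and 41.8 in TPdh-/-, and the groups overlapped. Widths were 1959 and 1755 bp (WT) against 1704, 730 and 1652 bp (TPdh-/-).

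Cd8a, the α chain that binds MHC and Lck, lies 50639 bp downstream of the Cd8b1 start. Its promoter had a peak in WT replicate 1 alone, over chr6:71372736-71373980 with a fold of 1.90 at the 16.0 percentile, and this peak covered the printed Cd8a promoter with its E-box match. None of the other 4 libraries listed any peak within 30 kb of Cd8a. Between the genes, a region 19164 bp downstream of the Cd8b1 start, chr6:71341235-71342668, had a peak in both WT libraries and in TPdh-/- replicate 3. It lay within 3000 bp of a start of Gm44110, which is not protein-coding. Its folds were 1.81, 1.91 and 2.05 and its percentiles 46.5, 34.9 and 26.0. A pair of further regions between the genes were in WT replicate 1 alone. The joint Cd8 window then held 5 and 2 peaks in WT and 1, 1 and 2 in TPdh-/-, and WT replicate 2 and TPdh-/- replicate 3 were alike in number, with 2626 and 2731 bp covered.

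**Figure D3:**
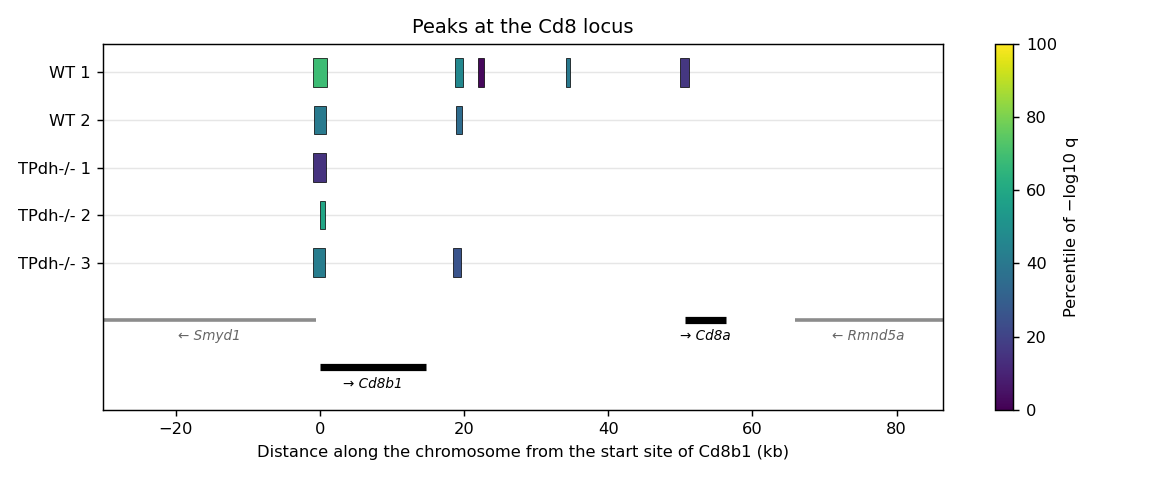
Peaks of the 5 libraries (rows) in the window of the Cd8 genes, drawn as boxes to scale along the chromosome in kb from the Cd8b1 start site and coloured by percentile of −log10 q. All libraries have a peak at the Cd8b1 start, which reaches the Smyd1 start in all but TPdh-/- replicate 2, and the peak at the Cd8a start is in WT replicate 1 alone.

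CD5 and CD6 are related scavenger receptor proteins that restrain T cell receptor signalling, and their genes lie 50338 bp apart. Both had a promoter peak in all libraries except TPdh-/- replicate 2. At Cd5 the region was chr19:10738853-10741691, mostly upstream of the start. Its folds were 1.73 and 2.04 in WT replicates 1 and 2 and 2.21 and 1.79 in TPdh-/- replicates 1 and 3, at percentiles of 35.4, 53.0, 46.0 and 19.7. The peaks were 2279, 2196, 2569 and 2537 bp wide, at or above the 93.7 percentile of width in their lists, although their folds were at or below the 11.6 percentile of fold. The groups overlapped in fold and in percentile. At Cd6 the region was chr19:10828039-10829964, inside the first part of the gene. Folds were 2.13 and 2.26 in WT and 2.44 and 2.40 in TPdh-/- replicates 1 and 3, while the percentiles of 48.7 and 33.9 in WT and 18.1 and 51.5 in TPdh-/- overlapped.

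A region centred 9046 bp upstream of the Cd5 start, chr19:10747136-10748960, had a peak in the same 4 libraries as the Cd5 promoter. It lay within 3000 bp of a start of A430093F15Rik, which is not protein-coding. Its percentiles were 91.3 and 59.5 in WT and 42.2 and 55.0 in TPdh-/- replicates 1 and 3. Both of these TPdh-/- percentiles were below both WT percentiles, and no share of all regions with that order is given here. By rank within the lists the groups overlapped, at 1395 and 3585 in WT and 2843 and 4241 in TPdh-/-. The folds of 2.25 and 2.03 in WT and 2.28 and 2.03 in TPdh-/- overlapped. Further upstream, a region between Cd5 and Cd6 had a peak in all libraries except TPdh-/- replicate 1, at percentiles of 53.9, 23.4, 3.69 and 22.02. A region in a Cd6 intron, chr19:10812663-10813946, was the 1 region of the 28 held by both WT libraries and by no TPdh-/- library. It was weak, with percentiles of 6.13 and 33.9. The strongest peak of the window belonged to a neighbour, the promoter of Vps37c, a gene of endosomal sorting, at the 95.2 and 91.8 percentiles in WT and the 72.5 percentile in TPdh-/- replicate 2.

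**Figure D4:**
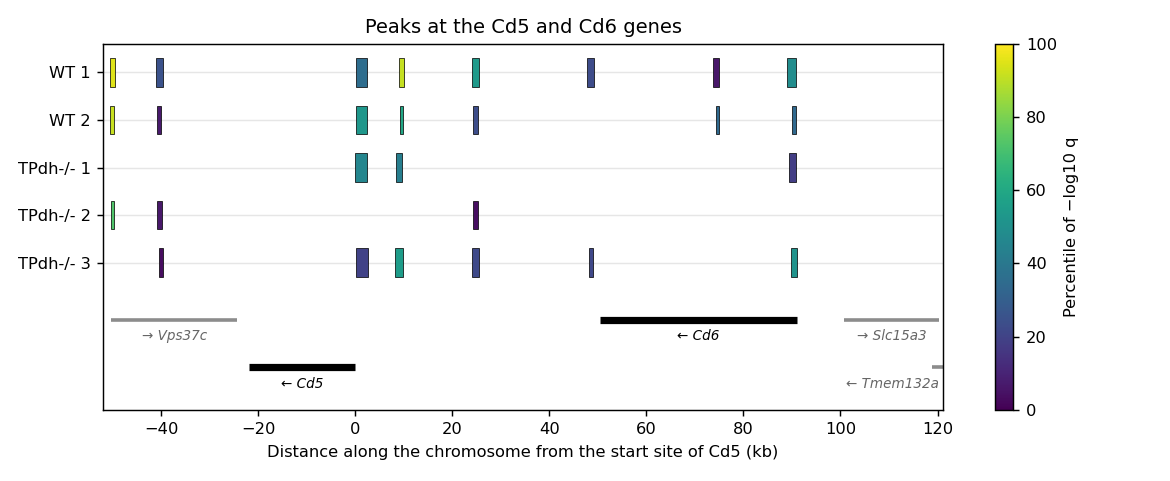
Peaks of the 5 libraries (rows) in the joint window of Cd5 and Cd6, drawn as boxes to scale along the chromosome in kb from the Cd5 start site and coloured by percentile of −log10 q. The Cd5 start, the site 9046 bp upstream of it and the Cd6 start have a peak in the same 4 libraries, and TPdh-/- replicate 2 has none of these.

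CD2, an adhesion receptor for CD48 in the mouse, had no peak within 3000 bp of the 5′ end of its gene in any library. The single promoter call, in WT replicate 1, was for a region in an intron near the start of a shorter transcript, with a fold of 1.90 at the 34.9 percentile. A region centred 8973 bp upstream of Cd2, chr3:101296166-101297658, had a peak in WT replicates 1 and 2 and in TPdh-/- replicate 3. The percentiles were 29.7, 19.8 and 16.1 and the folds 1.81, 1.94 and 1.94. TPdh-/- replicates 1 and 2 had no peak in the Cd2 window.

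Thy1 encodes the Thy-1 antigen, a marker of mouse T cells anchored to the membrane by a lipid. It had a peak near its start in WT replicate 1 alone, with a fold of 1.99 at the 34.1 percentile. A region centred 9714 bp upstream, chr9:44033228-44034113, had a peak in WT replicates 1 and 2 and in TPdh-/- replicate 2. It ranked higher than the promoter, at the 84.3, 63.6 and 42.6 percentiles, with folds of 2.13, 2.03 and 2.09. The TPdh-/- percentile was the lowest of the 3, but its rank of 3114 lay between 2505 and 3228 in WT replicates 1 and 2. TPdh-/- replicates 1 and 3 had no peak in the window.

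Over all windows, the 75 peaks of the 5 libraries merged into 28 regions. A member's promoter lay in 10 of these regions, the promoter of another coding gene (Creg1, Ube4a or Vps37c) in 3, and neither in 15. Some of these 15 lay within 3000 bp of the start of a gene that is not protein-coding. WT replicate 1 held 27 of the 28, and 8 were in that library alone, whereas over the whole series 30.9% of the 18410 merged regions were in WT replicate 1 alone. Only 2 regions, the Cd8b1 promoter and the Ube4a intron, had a peak in all 5 libraries, where 16.8% of the merged regions did. Without WT replicate 1, 20 regions were left.

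At least 1 peak was found in the window of all 10 genes in WT replicate 1 (64.1% of all protein-coding genes) and of 9 in WT replicate 2 (48.2%). It was found for 5 genes in TPdh-/- replicate 1 (33.4%), 8 in TPdh-/- replicate 2 (35.0%) and 8 in TPdh-/- replicate 3 (51.0%). The covered length within the window was longer in both WT libraries than in all 3 TPdh-/- libraries for Cd3d, Cd3g, Cd2 and Thy1, 4 of the 10 genes, and for 18.7% of all protein-coding genes. Cd3d and Cd3g counted the same peaks. Without WT replicate 2 the count was 10 of 10, where 59.6% of all genes (13056) did the same. Without TPdh-/- replicate 3 it was 8, beside 37.8% (8288). Only a gene with a window peak in every WT library used could be counted. Of all 21911 genes, 14037 had one in WT replicate 1 and 10569 in WT replicate 2. The shares among genes that could be counted were therefore higher than those given, and the members' counts are not read as an excess. No member was longer in all 3 TPdh-/- libraries, and 0.0456% of all genes were.

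Set against the promoter peaks of all protein-coding genes, those of the members were low. Their median fold was 1.97 and 2.17 in WT replicates 1 and 2 and 2.23, 2.46 and 2.07 in TPdh-/- replicates 1, 2 and 3. The corresponding medians over all coding promoter peaks were 2.71, 2.76, 2.82, 2.75 and 2.71. Every member promoter peak was under the median fold of the coding promoter peaks of its library, which was 9 of 9, 6 of 6, 3 of 3, 4 of 4 and 6 of 6 peaks. Most of them were wide, with 7 of 9, 4 of 6, 3 of 3, 3 of 4 and 5 of 6 wider than the median promoter peak. These are descriptions of 10 genes and carry no test.

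The groups were then compared over the 6 loci with 6 values per library. There were 27 and 17 peaks in the windows of WT replicates 1 and 2 and 5, 10 and 16 in those of TPdh-/- replicates 1, 2 and 3. The groups did not overlap, although TPdh-/- replicate 3 was 1 peak below WT replicate 2. WT libraries averaged 22 ± 7.07 peaks (SD, n = 2) and TPdh-/- libraries 10.3 ± 5.51 (SD, n = 3), a difference of 11.7 peaks (exact permutation test, two-sided, p = 0.2, adjusted p = 0.48 by Benjamini-Hochberg over the 6 values). A p of 0.2 is the smallest that 2 libraries against 3 allow, so no value could pass 0.05. Without WT replicate 1 the difference was 6.67 peaks.

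The mean over loci of the best percentile was 75.9 and 60.1 in WT and 21.6, 49.2 and 43.3 in TPdh-/-, again without overlap. It differed by 29.96 percentile points (exact permutation test, two-sided, p = 0.2, adjusted p = 0.48), and by 22.1 without WT replicate 1. Covered length was 34916 and 19649 bp for WT libraries against 7560, 9983 and 21150 bp for TPdh-/- libraries, with TPdh-/- replicate 3 above WT replicate 2 (difference of means 14385 bp, exact permutation test, two-sided, p = 0.4, adjusted p = 0.48). Without WT replicate 1 this difference was 6751 bp. The number of members with a promoter peak overlapped as well, at 8.50 ± 2.12 (SD, n = 2) for WT against 4.67 ± 2.08 (SD, n = 3) for TPdh-/- (exact permutation test, two-sided, p = 0.4, adjusted p = 0.48). The difference was 3.83 members, and 2.33 without WT replicate 1.

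The differences were smaller once the length of the lists was taken into account. Per 1000 peaks of the list, the windows held 1.69 and 1.92 peaks in WT and 1.02, 1.85 and 1.70 in TPdh-/-, a difference of 0.285 (exact permutation test, two-sided, p = 0.6, adjusted p = 0.6). Without TPdh-/- replicate 1, the lowest library, the difference was 0.0331. When each list was reduced to its 4920 strongest peaks, the length of the shortest, the difference was 1.67 peaks and that in best percentile was 5.18 points, with means of 33.9 in WT and 28.7 in TPdh-/-. The direction turned for promoters in these lists, with means of 2.00 members in WT and 2.67 in TPdh-/-. The median fold of the window peaks was 2.00 and 2.201 in WT and 2.28, 2.46 and 2.04 in TPdh-/-, which overlapped (exact permutation test, two-sided, p = 0.4, adjusted p = 0.48).

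**Figure D5:**
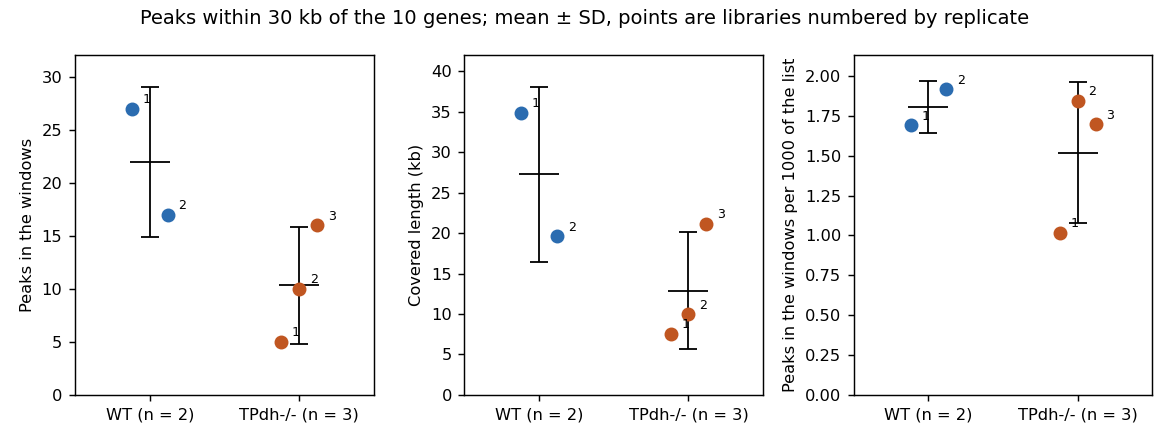
Number of peaks, covered length in kb and peaks per 1000 of the list within 30 kb of the 10 genes, with a point per library, lines at the mean and bars of 1 SD (WT n = 2, TPdh-/- n = 3). WT replicate 2 and TPdh-/- replicate 3 lie close together in the number of peaks and in covered length, and the groups overlap once the length of the list is divided out.

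Of 12 partners of the receptor named from its pathway, 11 and 7 had a promoter peak in WT replicates 1 and 2 and 5, 6 and 8 in TPdh-/- replicates 1, 2 and 3. Over all protein-coding genes the shares in the same order were 42.1% and 24.8% in WT and 15.3%, 16.5% and 27.9% in TPdh-/-. Lck and Zap70, the kinases that act first, the adaptor Lat and the phosphatase Ptprc (CD45) had one in all 5 libraries. The Zap70 peak was at the 99.1 and 95.6 percentiles in WT and the 78.0, 66.3 and 98.6 percentiles in TPdh-/-, above all members' promoters in each library except that of Cd3e in TPdh-/- replicate 2. Cd4, the coreceptor of the helper lineage, and Csk had a promoter peak in both WT libraries and in no TPdh-/- library. The percentiles in WT replicates 1 and 2 were 19.9 and 55.0 for Cd4 and 54.7 and 39.8 for Csk. No share of all protein-coding genes with this pattern is given here, so it is not read as a difference between the groups. The lists of TPdh-/- replicates 1 and 2 were also the shortest, at 4920 and 5419 peaks. Trat1, an adaptor of the receptor, had none.

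Markers of myeloid and NK cells were absent from the promoter calls. None of 5 myeloid genes (Csf1r, Lyz2, Adgre1, Cd14, Itgam) and none of the NK cell genes Ncr1 and Klrb1c had a promoter peak in any library. Zbtb7b, a transcription factor of CD4 T cells, had one in WT replicate 1 alone. Of the 2 genes that define the labelled CD8 cells, Cd8b1 had a promoter peak throughout and Cd8a in WT replicate 1 alone.

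Genes outside the list with the most similar values were sought by the mean absolute difference in best percentile over the 5 libraries within the gene body and 3000 bp. For Cd3 these were Tmem87a and Ganc, which share a peak, with a mean difference of 2.11 percentile points, and Wdr75 with 2.199. For Cd8 they were Mtrr and Fastkd3, also sharing a peak, with 3.60 points, and Top2b with 3.97. The likeness is over 5 libraries and was taken from 1 peak per library.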

How the data were processed

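ChIPseq of acetylated histones in TM cells was analysed from 5 deposited broad peak lists (2 WT, 3 TPdh-/-). Per the labels and methods, the authors checked reads with FastQC 0.11.9, aligned them to GRCm38 with BWA 0.7.17, kept uniquely mapped reads outside blacklisted regions with SAMtools 1.15.1 and called broad peaks per library with MACS2 2.2.6. No input control is named. The deposited fold enrichment is a ratio over the local background, and the authors' p-value and q-value per peak are given as −log10. The authors' DiffBind comparison starts from reads and was not repeated.

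Peaks were counted, ranked and merged (1 bp) with Python 3.11.15, numpy 2.4.6 and pandas 2.3.3, and annotated with GENCODE vM21. Calculations of peak number, covered length and best percentile in the windows recovered all 200 genes of simulated lists. Promoter calls were not part of that simulation. Promoter sequences came from RefSeq (GRCm38.p6), and all 6 were identical to the genome at their coordinates. Groups were compared by exact permutation over 10 divisions of the libraries. The members and lists were chosen with earlier results of these data known. Named besides members were genes whose promoter or body lay under a window peak, pathway partners, cell markers and, for Cd3 and Cd8, the 3 genes closest in percentile. Alternatives were lists of equal length, minimum −log10 q values of 2 and 5, flanks of 0, 10 or 100 kb, peak midpoints, promoters within 1000 bp, the gene's 5′ end, exclusion of other genes' promoters, rank by fold, a replicate block and leaving out each library. Not every marker list examined is reported here. ATACseq and RNAseq were not analysed here.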

Additional observations from a re-analysis of the deposited data

How the results depend on the processing

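Differences are WT minus TPdh-/-, and none could pass 0.05 in this design. Of 103 values under alternatives, 81 kept their direction and moved by less than 1 SD between replicates, or, for counts, stayed within 1.5 times, although some differences became far smaller, such as −0.00139 in median fold with lists of equal length. At a −log10 q of at least 5 the differences were 4.33 peaks, 1.17 members with a promoter peak, 0.864 peaks per 1000 and, reversed, 0.0586 in median fold. With lists of equal length they were 1.67 peaks, 2539 bp, 5.18 percentile points and, reversed, −0.667 members with a promoter peak. With the gene body alone they were 3.67 peaks, 3869 bp and, reversed, −0.00978 peaks per 1000, and with 100 kb they were 22 peaks, 26883 bp and 0.689 per 1000. Genes whose groups did not overlap numbered 4, and 2 at a −log10 q of at least 2 (17% of all genes), 1 at 5 (9%), 3 with equal lists (9.97%) and 2 within the gene body and 3000 bp (12.2%). These shares include genes without a peak in a WT library, which could not be counted. Pairs of gene and library with a window peak fell from 40 of 50 to 15 at 5, and pairs with a promoter peak from 31 to 4 at 5 and 12 with equal lists. The alternatives with fewer peaks or a different window describe how the values change, and the cause was not tested.

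Leaving out each library, chosen after seeing the data for the count of genes, gave between 4 and 10 genes without overlap, 10 where WT replicate 2 was dropped and 8 where TPdh-/- replicate 3 was. The labels do not say that replicate numbers pair the samples. The replicate block, which drops TPdh-/- replicate 3, gave differences of 14.5 peaks, 18511 bp, 5 members, 32.6 percentile points, −0.267 in fold and 0.374 per 1000. Without read numbers, a gene without a listed peak cannot be told from one just under the threshold.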
